A study of Rattus norvegicus with 45 samples.

Results

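The comparison described here is that of 5 liver arrays from male rats given myclobutanil with 5 liver arrays from control rats, all after 14 days. The 10 arrays were taken by their titles, 10 of the 45 of the series, and all probe sets of the table other than Affymetrix control probe sets were examined. Of 31042 such probe sets, 20826 are listed with 1 gene, and 14218 genes were each followed through their probe set of highest mean.

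The animals were Sprague-Dawley rats of 10 weeks of age, dosed by gavage. Myclobutanil was given at 225 mg/kg/day, a dose stated for the series and not for each sample. The label of the controls does not name what they received. Livers taken after 24 h at the same dose with their own controls, and livers of rats given triadimefon at 175 mg/kg/day for 14 days, 5 arrays in each group, serve below to show where the 14 day response differs. Titles, series text and labelling protocol conflict on the number of animals (45 arrays in groups of 5, 15 livers, and 3 rats per group). The titles were followed, and the p-values measure the spread between these arrays, which are not independent if any share an animal. No 2 arrays of the table hold identical values.

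Myclobutanil and triadimefon are triazole fungicides, which block the sterol 14-alpha-demethylase of fungi. In liver, foreign compounds of this kind can engage the nuclear receptors CAR and PXR, which raise the genes of drug clearance. Clearance runs from oxidation by cytochrome P450 enzymes, through hydrolysis and dehydrogenation, to conjugation with glucuronic acid or glutathione and export by membrane transporters, and the transcription factor NRF2 separately drives genes that supply NADPH and glutathione.

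Values are deposited scores on a logarithmic scale of unstated base. A difference of 1 unit would be 2-fold for log2 and 2.72-fold for the natural logarithm, so the differences below are in units of the score. Hepatocyte markers such as Alb and Apoa1 were high, with a list mean of 3.73 to 4.33 over the control arrays and 3.76 to 4.49 over the myclobutanil arrays. Markers of the pancreas acinar cell and of lymphocytes had list means between -0.065 and 0.0228 on all 10 arrays.

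The arrays did not share one distribution. The 99th percentile of the score was 3.09, 3.15, 2.87, 2.83 and 3.07 on control arrays 1 to 5, and 3.01, 3.34, 3.10, 3.41 and 2.93 on myclobutanil arrays 1 to 5, so myclobutanil arrays 2 and 4 had the brightest upper ends. The median difference between the groups grew with level, from -0.000926 over the 15290 probe sets with a mean score under 0 to 0.157 over the 305 with a mean above 3. After quantile normalization, which gives all 45 arrays the same distribution, the latter value was -0.00875. Results below come from the deposited values, with the quantile-normalized value beside them where direction or call changed. Leading counts are also given without myclobutanil arrays 2 and 4, a choice made after the values were seen.

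**Figure D1:**
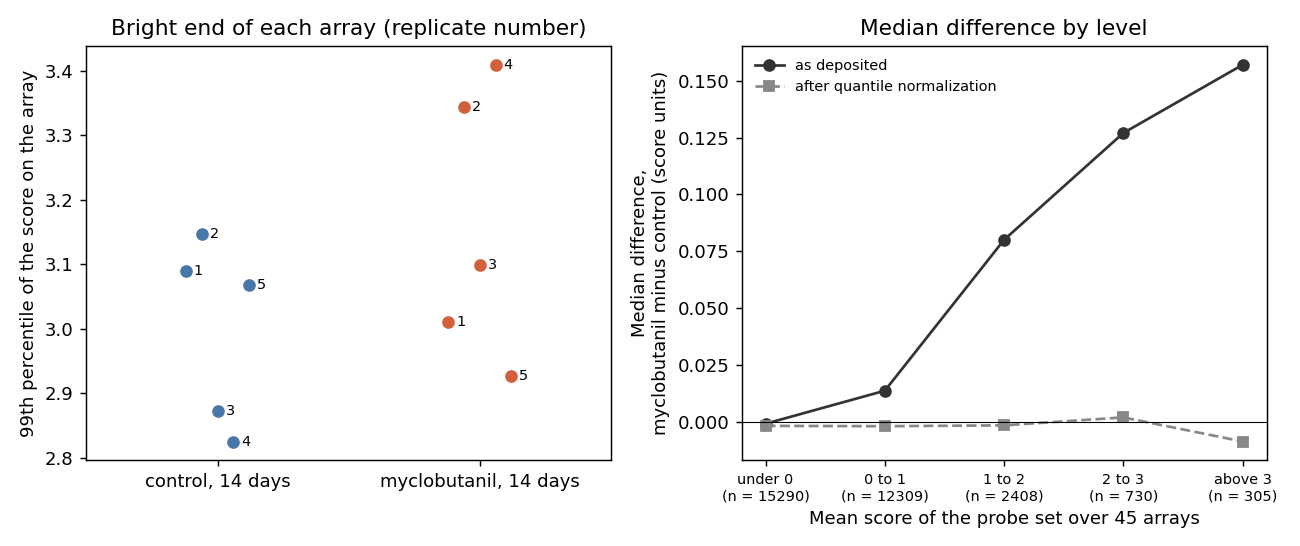
Left, the 99th percentile of the deposited score on each of the 10 arrays at 14 days, with replicate numbers; myclobutanil arrays 2 and 4 lie highest, at 3.34 and 3.41. Right, the median difference, myclobutanil minus control, over probe sets grouped by their mean score; it climbs to 0.157 above a score of 3 as deposited and lies at -0.00875 there after quantile normalization.

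At 14 days the highest differences between livers of myclobutanil-treated and control rats lay in genes of drug clearance. A probe set shared by Cyp2b1 and Cyp2b2, P450 enzymes raised by phenobarbital, was highest, followed by the glucuronosyltransferase Ugt2b1, the retinal dehydrogenase Aldh1a1, the glutathione transferase Gsta3 and the carboxylesterase Ces2c. By limma's moderated test, 228 probe sets were higher (0.734% of those tested) and 18 lower (0.058%) at a Benjamini-Hochberg adjusted p under 0.05, 0.792% in all. Counted as genes, 160 of 14218 rose (1.13%) and 10 fell (0.0703%), 1.2% in all. Most differences were small: the median size among the 246 called probe sets was 0.217 units, 22 exceeded 0.5 units and 5 exceeded 1 unit. At an unadjusted p under 0.05 there were 4070 probe sets.

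The balance of directions depended on the scaling. After quantile normalization 222 probe sets were higher (0.715%) and 124 lower (0.399%), 1.11% in all, and the share of higher calls was 64.2% against 92.7% as deposited. As genes, 146 were higher (1.03%) and 79 lower (0.556%) under that scaling. Of the higher calls 173 were made both ways, 75.9% of those as deposited and 77.9% of those after quantile normalization. All 18 of the lower calls were made both ways, 100% of the first set and 14.5% of the second. Without myclobutanil arrays 2 and 4 the deposited values gave 32 higher and 0 lower calls, and the quantile-normalized values gave 74 higher and 20 lower. Leaving out a single array also moved the 246 calls, to 73 without myclobutanil array 4, 128 without array 2, 108 without control array 4, 145 without control array 5 and 408 without myclobutanil array 5.

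Among the 160 genes that rose, myclobutanil array 4 held the highest treated value for 110 and array 5 the lowest for 79. After quantile normalization the same genes had their highest value on array 4 in 54 cases and their lowest on array 5 in 58. All 5 treated values lay above all 5 control values for 117 of these genes as deposited and for 98 after quantile normalization. Over all 14218 genes that separation upward occurred in 467 (3.28%) and downward in 69 (0.485%).

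**Figure D2:**
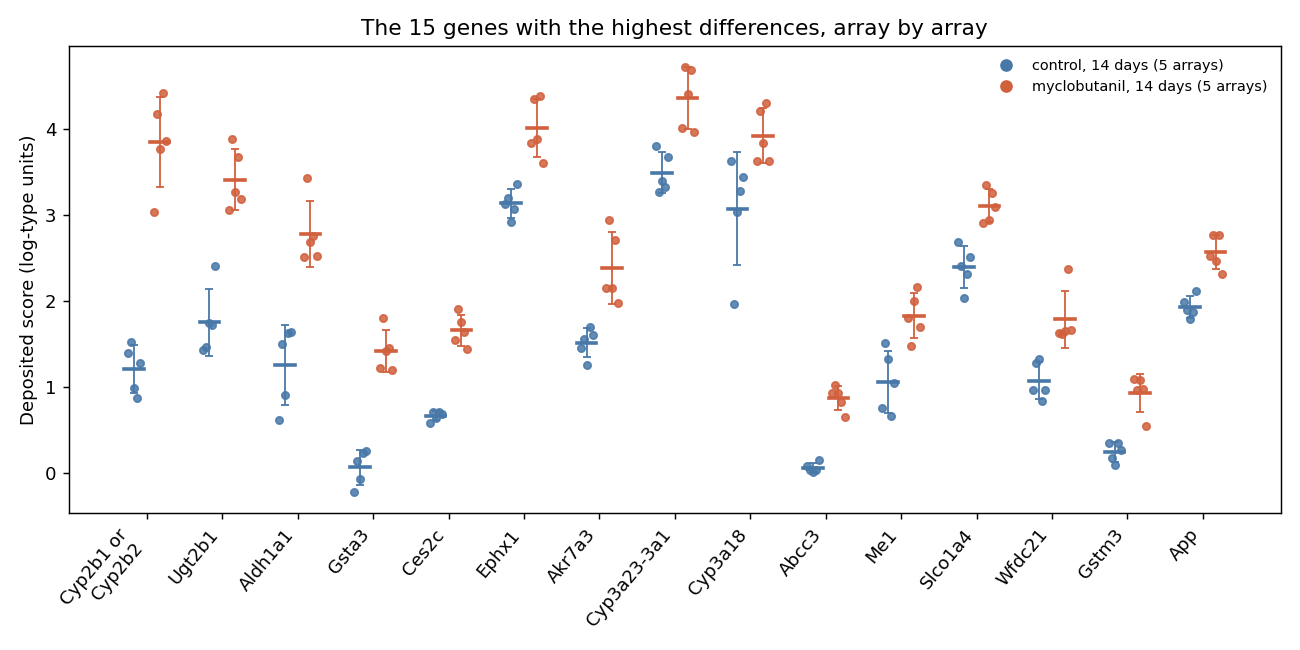
Deposited score of the 15 genes with the highest called differences, on the 5 control (blue) and 5 myclobutanil (orange) arrays at 14 days, with mean and SD. The groups do not overlap except for Cyp3a18 and Me1. Control array 2 stands at 1.96 for Cyp3a18, away from the other controls.

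The P450 enzymes open the pathway by adding oxygen to the compound. Control arrays read 1.40, 1.53, 0.988, 0.870 and 1.28 for Cyp2b1 or Cyp2b2, and myclobutanil arrays 3.03, 4.17, 3.77, 4.41 and 3.86. The lowest treated value was above the highest control value, and the means were 1.21 ± 0.277 (SD, n = 5) and 3.85 ± 0.524 (SD, n = 5). The difference was 2.63 ± 0.210 (adjusted p = 7.6e-11, with the SE of the fit after ±), the largest of any gene, and 2.40 after quantile normalization. The probe set is listed with both genes, so these closely related copies were not told apart.

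Of the CYP3A enzymes, which oxidise many steroids and drugs and are classical PXR targets, 3 rose. Cyp3a23-3a1 read 3.80, 3.27, 3.40, 3.32 and 3.67 in controls and 4.01, 4.72, 4.41, 4.68 and 3.96 with myclobutanil, a difference of 0.864 ± 0.147 (adjusted p = 0.00077). Its groups were separate, though by little, since control array 1 was high, and without myclobutanil arrays 2 and 4 the difference was 0.635 and not called. Cyp3a18, a male-biased form, read 3.63, 1.96, 3.03, 3.28 and 3.44 in controls and 3.63, 4.2, 3.84, 4.30 and 3.63 in treated livers, a difference of 0.850 ± 0.189 (adjusted p = 0.017). Control array 2 was far below the others, and the call was lost without it (0.573 units) and without myclobutanil array 2 or 4 (adjusted p up to 0.11). Cyp3a2 read 4.05, 3.64, 3.15, 3.68 and 3.81 in controls and 4.04, 4.64, 4.24, 4.61 and 3.88 in treated livers, overlapping groups that differed by 0.618 ± 0.151 (adjusted p = 0.036). That call was lost when control array 2, 3, 4 or 5 or myclobutanil array 2 or 4 was left out, with differences of 0.488 to 0.719 over all repeats and an adjusted p up to 0.20. The fourth measured member, Cyp3a9, differed by 0.364 ± 0.231 (adjusted p = 0.52). The CYP3A genes form one family, and what part of each signal comes from another member was not tested.

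Across the whole P450 list, 4 of 31 measured members rose and 0 fell, with a median difference of 0.177 units against 0.0171 over all genes. After quantile normalization 6 rose, with a median of 0.0416 against -0.000223. Over all genes 1.13% rose and 0.0703% fell as deposited, and 1.03% rose after quantile normalization. The added calls were Cyp2c6v1, a CYP2C enzyme, at 0.301 units (adjusted p = 4.2e-07), and Cyb5a, the cytochrome b5 that can hand electrons to P450s, at 0.156 units (adjusted p = 0.015). For Cyp2c6v1 the deposited controls read 4.01, 4.16, 3.76, 3.82 and 4.07 and the treated livers 4.32, 4.82, 4.41, 4.83 and 4.04. The groups overlapped through myclobutanil array 5, and the deposited difference of 0.521 ± 0.157 had an adjusted p of 0.10. The list gave 2 calls without control array 2, without myclobutanil array 2 or without myclobutanil array 4, and 1 call without both of the latter. It also gave 2 with only the compared groups in the fit and 2 with the replicate number as a block.

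Other P450s of the fixed panel did not pass the test. Cyp1a1, a marker of the dioxin receptor, differed by 0.177 ± 0.0701 (adjusted p = 0.25), with 1 treated array at 0.438 and the other 4 at or below 0.00621. Cyp1a2, a target of the same receptor, differed by 0.279 ± 0.137 (adjusted p = 0.38). The male-specific Cyp2c11 differed by 0.298 ± 0.172 (adjusted p = 0.47), Cyp2c7 by 0.173 ± 0.173 (0.71), and Cyp2a1 by 0.129 ± 0.0829 (0.53). Cyp4a1, a PPAR-alpha target that hydroxylates fatty acids, stood at a mean of 2.19 ± 0.173 (SD, n = 5) in controls and 2.00 ± 0.186 in treated livers, and Cyp26a1, which clears retinoic acid, at -0.00924 ± 0.0883 and 0.0797 ± 0.0745. Por, the reductase that feeds electrons to microsomal P450s, differed by 0.352 ± 0.169 (adjusted p = 0.36), and Alas1, which starts haem synthesis, by 0.263 ± 0.171 (0.53).

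The receptors themselves showed no called difference. Nr1i3, which encodes CAR, read 0.477, 0.602, 0.226, 0.651 and 0.586 in controls and 0.699, 0.573, 0.689, 0.379 and 0.427 in treated livers. Nr1i2, which encodes PXR, read 1.06, 1.26, 1.10, 1.14 and 1.14 in controls and 1.07, 1.12, 1.17, 1.22 and 1.09 in treated livers. In both cases the groups overlapped widely, and the 95% interval of the difference was -0.159 to 0.249 units for Nr1i3 and -0.171 to 0.157 for Nr1i2. Among 28 nuclear receptors and partners 0 were called in either direction, as deposited or after quantile normalization. The called share of all genes was 1.2% as deposited and 1.58% after quantile normalization, so 0 of 28 does not set these genes apart.

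Hydrolysis and dehydrogenation follow or replace oxidation. Aldh1a1, which oxidises retinal and other aldehydes, read 0.617, 1.5, 0.912, 1.63 and 1.65 in control livers and 2.51, 3.43, 2.68, 2.75 and 2.52 in treated livers. Myclobutanil array 2 stood above the other treated arrays, the groups were separate, and the difference was 1.52 ± 0.202 (adjusted p = 1.3e-05). Ces2c, a carboxylesterase that splits ester drugs, read 0.583, 0.710, 0.645, 0.710 and 0.690 in controls and 1.55, 1.91, 1.75, 1.64 and 1.44 with myclobutanil. The controls lay within a narrow band (SD 0.0542), and the difference was 0.992 ± 0.0953 (adjusted p = 1.1e-08). Ephx1, the microsomal epoxide hydrolase, went from 3.12, 3.20, 2.92, 3.07 and 3.36 to 3.83, 4.34, 3.88, 4.38 and 3.61, a difference of 0.876 ± 0.139 (adjusted p = 0.00024) that was still called after quantile normalization (0.665 units, adjusted p = 4.8e-08). Without myclobutanil arrays 2 and 4 it was 0.640 units and not called. These 3 were the only members called of 26 measured esterases, dehydrogenases and flavin monooxygenases, and 0 fell. Over all genes 1.13% rose and 0.0703% fell. The list's median difference was 0.156 units, and 0.0309 after quantile normalization.

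Conjugation with glucuronic acid was represented by Ugt2b1, which acts on steroids and phenols. Control livers read 1.43, 1.46, 1.75, 1.72 and 2.41 and treated livers 3.06, 3.88, 3.26, 3.67 and 3.18. The control of highest value, array 5, remained below every treated array. Means were 1.75 ± 0.392 (SD, n = 5) and 3.41 ± 0.350 (SD, n = 5), and the difference was 1.66 ± 0.185 (adjusted p = 3.8e-07). It was the only called member of 17 measured genes of glucuronidation and sulfation, whose median difference was 0.119 units, and 0.0504 after quantile normalization. Over all genes 1.13% were called higher. The related Ugt2b15 and Ugt2b10 differed by 0.390 and 0.367 units, with adjusted p of 0.25 and 0.16.

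Glutathione transferases gave 4 called members of 19, and 0 fell, beside 1.13% higher and 0.0703% lower over all genes. Gsta3, an alpha-class enzyme, read -0.217, 0.148, -0.0717, 0.232 and 0.255 in controls and 1.22, 1.80, 1.42, 1.46 and 1.20 in treated livers, a difference of 1.35 ± 0.157 (adjusted p = 8.9e-07). Its control scores lay around 0, and every treated array was above every control. The mu-class member Gstm3 read 0.357, 0.175, 0.0953, 0.349 and 0.270 in controls and 1.09, 0.968, 1.08, 0.983 and 0.547 in treated livers, a difference of 0.684 ± 0.0918 (adjusted p = 1.5e-05), with myclobutanil array 5 well below the other treated arrays yet above all controls. Gstm4, of the same class, differed by 0.343 ± 0.0472 (adjusted p = 2.2e-05), with all treated arrays above all controls. The microsomal enzyme Mgst2 differed by 0.443 ± 0.0920 (adjusted p = 0.009), a call lost without myclobutanil array 2 or 4 (0.376 to 0.501 units over all repeats, adjusted p up to 0.070). The median difference over the list was 0.306 units, the highest of the 39 lists, and 0.132 after quantile normalization. Under that scaling the liver's major mu-class enzyme Gstm1 was also called, at 0.241 units (adjusted p = 0.00033). As deposited it differed by 0.448 ± 0.143 (adjusted p = 0.13), with overlap through myclobutanil array 5.

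Promoters of the 15 highest genes were searched for 2 motifs, to show the sequence next to the change. Promoter windows of 13 of them, 250 bases before to 50 after the gene start, were found in the RefSeq table of build GRCr8. The core of the antioxidant response element, the letters TGACNNNGC on either strand, occurred in 3 of the 13, those of Gsta3, Me1 and App. It is held by 12.1% of all 33469 promoters there. Direct repeats of the nuclear receptor half-sites AGGTCA or AGTTCA with 4 bases between them, in one orientation on either strand, occurred in 0 of the 13 windows and in 0.0179% of all promoters. At so low a share, 0 of 13 says nothing about these genes. Other spacings and more distant sequence were not searched across the windows. The repeat given next, with 3 bases between, was noticed in the window named. It was not counted in the other windows or over all promoters. The Cyp3a23-3a1 window holds AGTTCA repeated with 3 bases between, on the opposite strand (tgaacttcatgaact). The 3 windows are shown 5' to 3' on the gene's strand, with the match in capitals. A match is a description of letters and not a site that was measured.
Gsta3 (GRCr8, chr9:31154739-31155038, + strand): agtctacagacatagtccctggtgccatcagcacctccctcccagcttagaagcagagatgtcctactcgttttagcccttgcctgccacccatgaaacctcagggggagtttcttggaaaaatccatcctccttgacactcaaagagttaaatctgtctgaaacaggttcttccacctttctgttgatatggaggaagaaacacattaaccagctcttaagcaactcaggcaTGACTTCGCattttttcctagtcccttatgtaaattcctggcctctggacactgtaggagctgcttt
Me1 (GRCr8, chr8:96540195-96540494, - strand): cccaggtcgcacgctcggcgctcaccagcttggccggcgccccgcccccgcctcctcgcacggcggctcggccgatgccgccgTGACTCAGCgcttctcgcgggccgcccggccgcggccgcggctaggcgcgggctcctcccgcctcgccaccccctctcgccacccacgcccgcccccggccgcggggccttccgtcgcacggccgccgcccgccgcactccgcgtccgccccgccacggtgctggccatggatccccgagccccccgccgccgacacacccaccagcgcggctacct
App (GRCr8, chr11:37722789-37723088, - strand): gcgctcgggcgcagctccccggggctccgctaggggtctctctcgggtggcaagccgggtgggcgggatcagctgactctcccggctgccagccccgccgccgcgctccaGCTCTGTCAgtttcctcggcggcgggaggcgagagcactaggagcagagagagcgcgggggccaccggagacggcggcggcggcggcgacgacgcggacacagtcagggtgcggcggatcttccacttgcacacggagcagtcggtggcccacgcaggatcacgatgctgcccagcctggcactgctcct
Counted from the gene start, the match begins at -17 in Gsta3, at -167 in Me1 and at -140 in App, where the capitals give the reverse complement of the motif.

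Of 23 measured transporters 2 rose and 0 fell, at a median difference of 0.0353 units, and -0.0124 after quantile normalization. Over all genes 1.13% rose and 0.0703% fell as deposited. Abcc3, a basolateral pump that returns conjugates to the blood, read 0.0829, 0.0387, 0.00957, 0.0331 and 0.154 in controls and 0.933, 1.02, 0.937, 0.833 and 0.650 in treated livers. Controls were near 0 and separate from every treated array, and the difference was 0.811 ± 0.0959 (adjusted p = 1.1e-06). Slco1a4, an uptake carrier for organic anions and digoxin, read 2.69, 2.41, 2.03, 2.31 and 2.52 in controls and 2.9, 3.34, 2.95, 3.25 and 3.09 in treated livers, a difference of 0.716 ± 0.0946 (adjusted p = 1.3e-05) without overlap. A further probe set of Slco1a4 was called the same way. The drug efflux pump Abcb1a differed by 0.188 ± 0.0918 (adjusted p = 0.38) and the canalicular pump Abcc2 by 0.131 ± 0.105 (0.63). After quantile normalization 1 transporter was lower, Slc22a7, an organic anion carrier, at -0.162 units (adjusted p = 0.015).

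Genes of NADPH and glutathione supply, most of them NRF2 targets, gave 6 called members of 26, and 0 fell. Over all genes 1.13% rose and 0.0703% fell. Akr7a3, an aldo-keto reductase that detoxifies aflatoxin aldehyde, read 1.46, 1.56, 1.26, 1.70 and 1.60 in controls and 2.15, 2.95, 2.15, 2.71 and 1.98 with myclobutanil. Arrays 2 and 4 were the highest of the treated group, the difference was 0.869 ± 0.150 (adjusted p = 0.00093), and without these arrays it was 0.576 units and not called. Me1, the malic enzyme that makes NADPH, read 0.763, 1.51, 1.33, 0.663 and 1.04 in controls and 1.81, 1.48, 2.00, 2.16 and 1.70 in treated livers, a difference of 0.767 ± 0.140 (adjusted p = 0.0019). Control array 2 overlapped the treated range. Gsr, which regenerates glutathione, read 0.706, 0.820, 0.781, 0.845 and 0.747 in controls and 0.958, 1.21, 1.07, 1.18 and 1.03 in treated livers, a small difference of 0.309 ± 0.0445 (adjusted p = 4.6e-05) with no overlap.

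The remaining called members of that list were Ephx1, described above, Pgd and Gclc. Pgd, an NADPH-producing enzyme of the pentose phosphate pathway, differed by 0.398 ± 0.0867 (adjusted p = 0.014), and its call was lost without control array 4 or myclobutanil array 4 (0.323 to 0.452 units, adjusted p up to 0.13). Gclc, the catalytic subunit that starts glutathione synthesis, differed by 0.359 ± 0.0812 (adjusted p = 0.019), lost without control array 3, 4 or 5 or myclobutanil array 4 (0.302 to 0.417 units, adjusted p up to 0.14). Neither was called after quantile normalization (adjusted p = 0.055 and 0.088), where the thioredoxin Txn1 was, at 0.143 units. Nqo1, a quinone reductase and textbook NRF2 target, read 0.638, 1.34, 1.25, 1.46 and 0.973 in controls and 1.65, 1.90, 2.04, 1.85 and 0.737 in treated livers. Treated arrays 1 to 4 lay above every control and array 5 below all but 1 of them, and the difference of 0.501 ± 0.197 was not called (adjusted p = 0.25). The list gave 2 calls without myclobutanil arrays 2 and 4, and 3 when quantile normalization was added. Outside the list Pir, an iron-binding protein also counted among NRF2 targets, differed by 0.433 ± 0.0982 (adjusted p = 0.02). Its call was lost without control array 1, 3 or 4 or myclobutanil array 2 or 4 (0.402 to 0.478 units, adjusted p up to 0.10).

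The 6 drug-handling lists are those of P450s, esterases and dehydrogenases, glucuronidation and sulfation, glutathione transferases, transporters, and NRF2 targets. They were chosen with earlier results of these data known, so the counts describe them and are not a test. Taken as one set, each gene once, they held 140 measured genes, of which 19 rose and 0 fell, with a median difference of 0.139 units. Among the other 14078 genes 141 rose and 10 fell, with a median of 0.0166. After quantile normalization the counts were 21 and 1 of 140, against 125 and 78 of 14078. Without myclobutanil arrays 2 and 4 there were 11 higher members as deposited and 16 after quantile normalization. Most of the genes that rose are therefore not members of these lists.

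**Figure D3:**
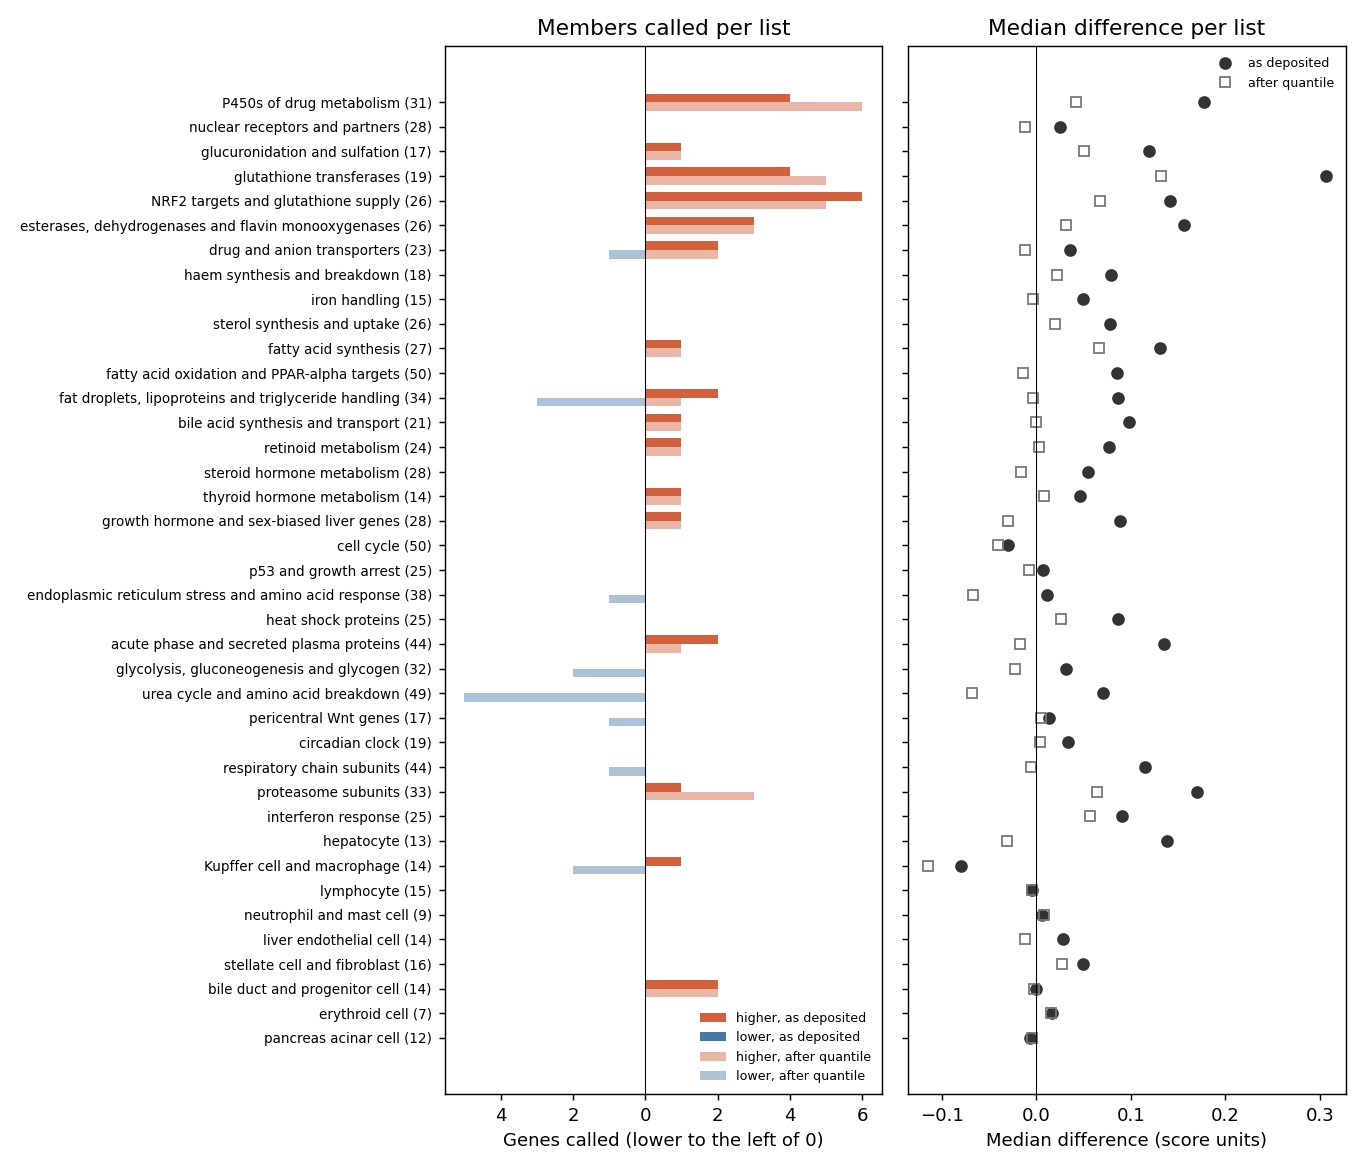
Left, the number of measured members called higher (right of 0) or lower (left of 0) in each list, as deposited (full colour) and after quantile normalization (pale); list sizes are in brackets. Right, the median difference over all measured members. The lists with the most higher calls as deposited are drug-handling lists, such as 6 of 26 in the NRF2 list and 4 of 31 among P450s. Not all drug-handling lists stand out, since glucuronidation and sulfation held 1, fewer than the 2 of the fat droplet list. The 5 lower calls in amino acid breakdown appear only after quantile normalization.

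Several of the highest genes outside drug clearance are secreted, surface or structural proteins. Wfdc21, a small secreted protease-inhibitor-like protein, read 0.965, 1.28, 1.32, 0.836 and 0.964 in controls and 1.63, 1.62, 1.65, 2.37 and 1.66 with myclobutanil. Array 4 stood far above the other treated arrays, which lay close together, and the difference was 0.712 ± 0.124 (adjusted p = 0.001). App, the amyloid precursor protein, a widely made membrane protein, read 1.99, 1.89, 1.79, 1.87 and 2.12 in controls and 2.52, 2.77, 2.46, 2.77 and 2.32 in treated livers, a difference of 0.634 ± 0.0857 (adjusted p = 1.6e-05). All 3 of its probe sets were called higher. Epcam, an adhesion protein of epithelia and of bile duct and progenitor cells in liver, read 0.506, 0.336, 0.422, 0.543 and 0.507 in controls and 1.02, 0.903, 0.885, 1.02 and 0.671 in treated livers, a difference of 0.436 ± 0.0598 (adjusted p = 2.0e-05) with no overlap.

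Epcam and Krt8 were the 2 called members of 14 bile duct and progenitor markers, beside 1.13% higher over all genes. Krt8, a keratin that hepatocytes also make, differed by 0.385 ± 0.0982 (adjusted p = 0.046). Its call was lost in 8 of 10 repeats, all but those without myclobutanil array 3 or 5 (0.259 to 0.459 units, adjusted p up to 0.29). The bile duct keratins Krt19 and Krt7, which hepatocytes do not usually make, were near 0 in both groups. Their control and treated means were -0.0736 and -0.116 for Krt19 and -0.0808 and -0.116 for Krt7. Epcam, in contrast, stood at 0.463 in controls and 0.899 in treated livers. Of the 14 markers 9 had a control mean under 0. The list mean ran from 0.237 to 0.278 over control arrays and from 0.226 to 0.419 over treated arrays, and its median difference was -0.00103. In whole liver, more cells of a type and more RNA per cell cannot be told apart.

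Smaller rises were found in genes of varied function, chosen for mention after their values were seen. Cystm1, a small membrane protein, differed by 0.376 ± 0.0457 (adjusted p = 1.9e-06), with controls of 0.645, 0.652, 0.530, 0.637 and 0.702 and treated values of 0.992, 0.987, 0.959, 1.16 and 0.948. Its other probe set differed by -0.0307 and was not called. Sri, a calcium-binding protein, differed by 0.402 ± 0.0615 (adjusted p = 0.00013). The actin-binding tropomyosin Tpm1 differed by 0.339 ± 0.0504 (adjusted p = 8.3e-05), though only 1 of its 6 other probe sets was called. Entpd5, a nucleotide-splitting enzyme of the endoplasmic reticulum, differed by 0.397 ± 0.0679 (adjusted p = 0.00081), with both further probe sets called. Nipal2, of a magnesium transporter family, differed by 0.332 ± 0.0512 (adjusted p = 0.00015), and Ctsd, the lysosomal protease cathepsin D, by 0.308 ± 0.0586 (adjusted p = 0.0036). In each of these 6 genes every treated array lay above every control, and no call was lost when 1 array was left out, or after quantile normalization.

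Lists of fat, immune and protein-turnover genes held few calls. Over all genes 1.13% were higher as deposited and 1.03% after quantile normalization. Plin3, a coat protein of lipid droplets, differed by 0.381 ± 0.0823 (adjusted p = 0.013), lost without control array 1 or myclobutanil array 4 (0.330 to 0.439 units, adjusted p up to 0.098). The lipase Mgll differed by 0.211 ± 0.0525 (adjusted p = 0.039), lost without control array 1, 4 or 5 or myclobutanil array 2 or 4 (0.158 to 0.248 units, adjusted p up to 0.25) and after quantile normalization (adjusted p = 0.16). These were 2 of 34 measured genes of fat droplets and lipoproteins. Among 44 acute phase and plasma proteins Lbp, which binds bacterial lipopolysaccharide, differed by 0.353 ± 0.0793 (adjusted p = 0.018), lost without control array 3 or 4 or myclobutanil array 1 or 4 (0.258 to 0.410 units, adjusted p up to 0.15). The kininogen Kng2l1 of the same list differed by 0.389 ± 0.0996 (adjusted p = 0.047), a call lost in 8 of 10 repeats, all but those without myclobutanil array 3 or 5 (adjusted p up to 0.26), and after quantile normalization. None of 2 other probe sets of Kng2l1, 2 of Psmd14 and 1 of Gclc was called. Of 3 other probe sets of Mgll, 2 were called higher. Psmd14 was the single called proteasome subunit of 33, at 0.245 ± 0.0593 (adjusted p = 0.032), lost without control array 2, 4 or 5 or myclobutanil array 2 or 4 (0.210 to 0.282 units, adjusted p up to 0.19). All 33 subunits had a mean above control, at a median of 0.170 units as deposited and 0.0639 after quantile normalization, where 30 were above control and 3 called (Psmd14, Psma6 and Psmd13). Without myclobutanil arrays 2 and 4 there were 0 calls under either scaling.

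Of 14 measured Kupffer cell and macrophage markers 1 rose, beside 1.13% of all genes. The share of all genes lower was 0.0703% as deposited and 0.556% after quantile normalization. Cd14, the co-receptor for lipopolysaccharide, differed by 0.386 ± 0.0996 (adjusted p = 0.050), just under the threshold before rounding, a call lost in 8 of 10 repeats, all but those without control array 1 or myclobutanil array 5 (adjusted p up to 0.23), and after quantile normalization (adjusted p = 0.16). The other 13 measured markers were not called as deposited, and the list's median difference was -0.0798. After quantile normalization the median was -0.115, and 2 markers were lower, the Kupffer cell lectin Clec4f at -0.384 units (adjusted p = 0.030) and the complement subunit C1qa at -0.253 units (adjusted p = 0.036). The list mean ran from 1.20 to 1.45 over control arrays and from 1.09 to 1.47 over treated arrays as deposited.

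Of the 10 genes that fell, Spin2b had the largest difference. This member of the spindlin family of chromatin readers read 0.479, 0.593, 1.03, 0.556 and 0.344 in controls and -0.375, -0.0311, -0.170, -0.116 and 0.259 in treated livers. Groups were separate, with control array 3 highest and myclobutanil array 5 highest among the treated, and the difference was -0.688 ± 0.143 (adjusted p = 0.009). No repeat with 1 array left out lost the call, but it was lost without myclobutanil arrays 2 and 4, at -0.696 units. Cfd, the complement protease adipsin, read 0.759, 0.426, 0.359, 0.402 and 0.400 in controls and 0.179, 0.160, 0.129, 0.192 and 0.198 in treated livers. Control array 1 stood far above the other controls, no group overlapped, and the difference was -0.298 ± 0.0706 (adjusted p = 0.028). That call was lost without control array 1 or myclobutanil array 2, 3 or 4 (-0.325 to -0.225 units, adjusted p up to 0.11).

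The other 8 genes that fell differed by 0.0934 to 0.170 units and sat at low scores. They were Ahctf1, a nuclear pore protein (-0.170 ± 0.0427, adjusted p = 0.04), the chemokine Cxcl14 (-0.150 ± 0.0378, adjusted p = 0.041), Gask1b (-0.118 ± 0.0302, adjusted p = 0.048), the metalloprotease Adam15 (-0.117 ± 0.0276, adjusted p = 0.027), the phosphatase subunit Ppp2r2b (-0.115 ± 0.0247, adjusted p = 0.013), Pdzd4 (-0.112 ± 0.0270, adjusted p = 0.032), the RNA-processing protein Pop1 (-0.0983 ± 0.0225, adjusted p = 0.021) and Smco3 (-0.0934 ± 0.0236, adjusted p = 0.042). The other probe sets of Ahctf1 (2), Cxcl14 (1), Gask1b (1) and Pop1 (1) were not called. All 8 lost the call in at least 2 of the 10 repeats. Ppp2r2b lost it without control array 4 or myclobutanil array 4 (adjusted p up to 0.068) and Pop1 without control array 4 or 5 or myclobutanil array 2 (0.074). Adam15 lost it without control array 1, 2 or 4 or myclobutanil array 4 or 5 (0.12), and Cxcl14 without control array 3, 4 or 5 or myclobutanil array 2, 3 or 4 (0.22). Ahctf1 kept it only without control array 2 or 3 or myclobutanil array 5 (adjusted p up to 0.16 in the others), Pdzd4 only without control array 2 or myclobutanil array 2 or 3 (0.19), Smco3 only without control array 3 or myclobutanil array 1 or 3 (0.21), and Gask1b only without control or myclobutanil array 4 (0.14).

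More genes of hepatocyte metabolism were lower once the arrays had been given one distribution. Of 49 measured genes of the urea cycle and amino acid breakdown, 0 were called as deposited. After quantile normalization 5 were lower (against 79 of all 14218 genes): the histidine ammonia-lyase Hal, the glycine methyltransferase Gnmt, the aminotransferase Agxt, the proline dehydrogenase Prodh and the urea cycle enzyme Ass1. Hal had quantile-normalized scores of 2.11, 2.16, 2.16, 2.08 and 2.20 in controls and 1.65, 1.92, 1.49, 1.63 and 1.90 in treated livers, a difference of -0.424 (adjusted p = 0.011). Under that scaling its groups were separate, whereas the deposited values overlapped and differed by -0.326 ± 0.123 (adjusted p = 0.22). The quantile-normalized difference was -0.368 for Gnmt (adjusted p = 0.046), -0.254 for Agxt (0.046), -0.223 for Prodh (0.025) and -0.229 for Ass1 (0.015). The list's median difference was 0.0701 as deposited and -0.0678 after quantile normalization, so its direction turned with the scaling. Without myclobutanil arrays 2 and 4, quantile-normalized values left 1 call of these 49.

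Of 32 measured genes of glycolysis, gluconeogenesis and glycogen, 0 were higher and 2 lower after quantile normalization, at a median difference of -0.0226. Of 34 genes of fat droplets and lipoproteins, 1 was higher (Plin3) and 3 lower, at a median of -0.0036, against 0.556% lower over all genes. The gluconeogenic enzymes Pc and Fbp1 were lower after quantile normalization, by differences of -0.232 (adjusted p = 0.0072) and -0.217 (0.0037), with separate groups, and not as deposited (-0.156 and -0.0897, adjusted p = 0.27 and 0.81). Pltp, Lipc and Lcat, which remodel lipoproteins in plasma, had quantile-normalized differences of -0.296, -0.164 and -0.133 (adjusted p = 0.0071, 0.038 and 0.025). As deposited Pltp differed by -0.253 (adjusted p = 0.054), and the differences of Lipc and Lcat were -0.0369 and 0.00383, so that of Lcat changed sign. Rgn, a calcium-binding lactonase of hepatocytes, differed by -0.273 after quantile normalization (adjusted p = 0.018) and -0.120 as deposited (0.75). Hepatocyte markers as a list had a median difference of 0.138 as deposited and -0.0315 after quantile normalization, with 0 of 13 called either way.

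Sterol synthesis, which holds the mammalian counterpart of the fungal target, was not called at any of 26 measured members. The called share of all genes was 1.2% as deposited and 1.58% after quantile normalization. A count of 0 in this list, or in those of 15 to 50 genes below, is near that share and does not set them apart. Cyp51, the rat sterol 14-alpha-demethylase, read 2.84, 2.65, 2.34, 2.66 and 2.92 in controls and 2.79, 3.08, 2.86, 3.18 and 2.73 in treated livers. The groups overlapped, and the difference of 0.245 ± 0.103 had an adjusted p of 0.28 and a 95% interval of 0.0376 to 0.453 units. Insig1, a sterol-regulated brake on the pathway, differed by 0.247 ± 0.178 (adjusted p = 0.58), and the lipogenic factor Srebf1 by 0.119 ± 0.139 (0.76). The median over the list was 0.0781 units, and 0.0199 after quantile normalization. Lists of fatty acid oxidation (50 genes), cell cycle (50), p53 and growth arrest (25), heat shock (25), interferon response (25), haem synthesis (18), iron handling (15) and circadian clock (19) also had 0 called members, as deposited and after quantile normalization. Some other settings of the test, or leaving out 1 array, called 1 or 2 members of the haem, sterol, fatty acid oxidation, p53 and heat shock lists. Fatty acid synthesis (27 measured), bile acid synthesis and transport (21), retinoid metabolism (24), thyroid hormone metabolism (14) and sex-biased liver genes (28) each had 1 called member, which was Me1, Abcc3, Aldh1a1, Me1 and Cyp3a18 respectively.

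The effect of myclobutanil at 14 days was also compared with its effect at 24 h. In a direct test of the effect at 14 days minus the effect at 24 h, 1073 probe sets were higher (3.46%) and 344 lower (1.11%), 4.56% of those tested. After quantile normalization 496 were higher (1.6%) and 713 lower (2.3%), 3.89% in all, so the majority direction turned. The count of 1417 was 677 without control array 2 of 24 h, 2426 without control array 4 of 24 h, 921 without myclobutanil array 1 of 24 h, 797 without control array 4 of 14 days and 715 without myclobutanil array 4 of 14 days. It was 483 without myclobutanil arrays 2 and 4 of 14 days.

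**Figure D4:**
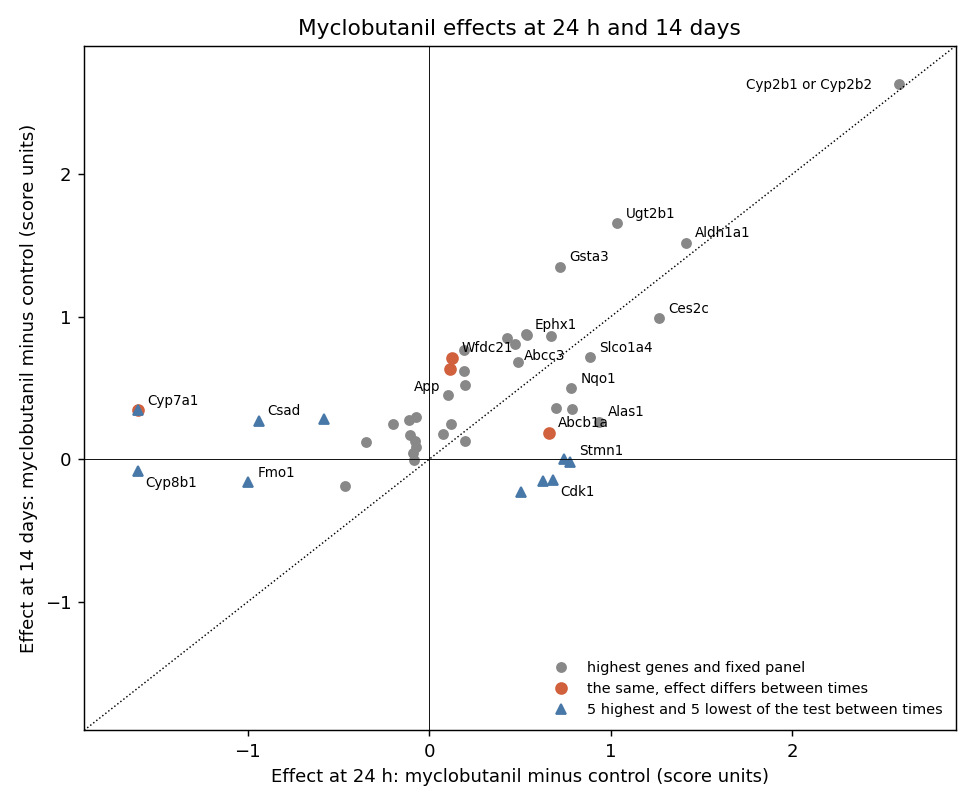
Myclobutanil effect (treated minus control mean, deposited score) at 24 h against that at 14 days, for the 15 highest genes and the panel (circles, orange where the effect differed between times) and the 5 highest and 5 lowest genes of the test between times (triangles). The dotted line marks equal effects. Cyp2b1 or Cyp2b2 lies on it, App and Wfdc21 lie above it with effects near 0 at 24 h, and Cyp7a1 and Cyp8b1 lie far to the left.

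The leading drug-clearance genes had effects at 24 h that did not differ by the test from those at 14 days. For Cyp2b1 or Cyp2b2 the effects were 2.59 at 24 h and 2.63 at 14 days, a difference of 0.0461 ± 0.297 (adjusted p = 0.95). Aldh1a1 had 1.41 and 1.52 (adjusted p = 0.87) and Ces2c 1.27 and 0.992 (0.23). Ugt2b1 and Gsta3 had 1.04 and 1.66, and 0.720 and 1.35, differences of 0.620 ± 0.262 and 0.633 ± 0.223 that missed the threshold (adjusted p = 0.16 and 0.087). Slco1a4 had 0.885 and 0.716, a difference of -0.169 that was called after quantile normalization only (-0.496, adjusted p = 0.011). The pump Abcb1a had 0.658 at 24 h and 0.188 at 14 days, a drop that passed the test as deposited (-0.471, adjusted p = 0.029) and after quantile normalization (-0.480, 0.024). Alas1 and Gsr had 0.936 and 0.263, and 0.460 and 0.309, with smaller effects at 14 days by the test after quantile normalization (-0.949, adjusted p = 0.0084, and -0.257, 0.0048) and not as deposited (adjusted p = 0.093 and 0.15). Of the 33 proteasome subunits, 0 differed between the times as deposited, and 23 had a smaller effect at 14 days after quantile normalization. Under that scaling 3.07% of all genes had a lower effect at 14 days, as did 9 of 25 heat shock genes.

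For some called genes the effect at 14 days exceeded that at 24 h by the test. These genes were chosen on their 14 day effect, which enters the difference. App went from an effect of 0.117 to 0.634, a difference of 0.517 ± 0.121 (adjusted p = 0.0098; 0.258 after quantile normalization, 0.015). Epcam went from -0.0199 to 0.436 (difference 0.456, adjusted p = 0.0014), Cystm1 from -0.0310 to 0.376 (0.407, 0.00031) and Nipal2 from -0.170 to 0.332 (0.501, 0.00015), and all 3 passed after quantile normalization too. Kng2l1 went from -0.337 to 0.389 (0.726, 0.0020; quantile 0.431, 0.0035). The differences for Wfdc21 (0.586), Sri (0.285), Pgd (0.532), Entpd5 (0.367), Plin3 (0.420) and Ctsd (0.279) were called as deposited and not after quantile normalization.

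The highest differences between the times were those of 2 genes of bile acid synthesis, and the lowest were those of cell division genes. None of the 10 genes at these ends was called at 14 days. Cyp7a1, the rate-limiting enzyme of bile acid synthesis, had an effect of -1.60 at 24 h and 0.346 at 14 days, a difference of 1.95 ± 0.384 (adjusted p = 0.0023). At 14 days it read 0.563, 1.87, 1.77, 0.708 and 1.47 in controls and 1.29, 1.07, 1.98, 2.48 and 1.28 with myclobutanil, with wide spread and overlap in both groups. Cyp8b1, which directs synthesis to cholic acid, had -1.60 and -0.0783, a difference of 1.53 ± 0.212 (adjusted p = 0.00011). Csad, of taurine synthesis, Ptgr1, a reductase, and Fmo1, a flavin monooxygenase, followed with differences of 1.21, 0.863 and 0.838. Over the list of bile acid synthesis and transport 2 of 21 measured genes were higher and 0 lower, under both scalings. Of 50 cell cycle genes, 0 had a higher and 42 a lower effect at 14 days than at 24 h (1.51% of all genes were lower, 5.01% higher and 6.52% either), 43 after quantile normalization (2.05% of all genes were then higher, 3.07% lower and 5.12% either), 26 where only probe sets above the median level were tested, and 36 without myclobutanil arrays 2 and 4. The list's median effect was 0.331 at 24 h, with 49 of 50 above 0, and -0.0299 at 14 days, with 15 above 0. Cdk1, the kinase of mitotic entry, had 0.682 at 24 h and -0.143 at 14 days (difference -0.825 ± 0.159, adjusted p = 0.0019). Stmn1, Spc24, Pclaf and Cdkn3 followed with differences of -0.800, -0.780, -0.746 and -0.736.

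Livers given triadimefon for 14 days were set beside those given myclobutanil in the same fit. The doses differed, at 175 and 225 mg/kg/day, so compound and dose cannot be told apart. Triadimefon minus myclobutanil gave 51 higher (0.164%) and 52 lower (0.168%) probe sets, 0.332% of those tested. After quantile normalization there were 154 (0.496%) and 138 (0.445%), 0.941% in all. As genes, 0.401% differed as deposited (0.204% higher, 0.197% lower) and 1.13% after quantile normalization (0.598% higher, 0.528% lower). The 103 calls became 40, 54 or 64 without myclobutanil array 4, 2 or 3, and 23, 63 or 64 without triadimefon array 4, 5 or 2. Without myclobutanil arrays 2 and 4 there were 26.

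Among the members, Ces2c was higher with triadimefon, at a mean of 2.17 against 1.66 (0.509 ± 0.0953, adjusted p = 0.0069), and so were Cfd (0.538 against 0.171, adjusted p = 0.0092) and Abcb1a (0.430 against 0.0402, adjusted p = 0.043). Pgd and Mgll were lower with triadimefon, by differences of -0.368 (adjusted p = 0.043) and -0.242 (0.026). These 5 calls were also made after quantile normalization. For Cyp2b1 or Cyp2b2 the means were 3.73 and 3.85, with a 95% interval of the difference of -0.541 to 0.309 units, and for Gsta3 1.62 and 1.42, with an interval of -0.120 to 0.517. Neither interval shows that the compounds act alike. The largest differences lay in genes that myclobutanil had not changed by the test: the metallothionein Mt2A (1.55 higher with triadimefon), the sterol exporters Abcg5 (1.0) and Abcg8 (0.816), and the clock repressors Nr1d2 (0.825) and Nr1d1 (0.524) on one side, and Apoa4 (-0.848), the lipid droplet protein Plin2 (-0.665), the clock gene Cry1 (-0.628), Tkfc (-0.624) and the growth-arrest gene Cdkn1a (-0.430) on the other.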

How the data were processed

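Rat liver RNA was hybridised to 45 Affymetrix arrays of 1 colour, 1 array per sample of the series. The values are the deposited scores of the series' value table, on a log-type scale that the authors do not describe; how they were normalized, and the log base, are not given in the sources used here. Scores ran from about -0.98 to 5.69 and their upper ends differed between arrays, so the deposited table is not quantile normalized. The planned test was for log2 or linear values and was run on the scores unchanged.

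All 9 groups of 5 arrays were fitted together with limma 3.58.1 in R 4.3.3 (a mean per group, empirical Bayes moderation, Benjamini-Hochberg adjustment over 31042 probe sets, threshold 0.05), after 57 Affymetrix control probe sets were left out. A single gene is given for 20826 of the tested probe sets, several genes for 436 and no gene for 9780, and 20758 gene IDs were found in RefSeq. Of 14218 genes 4525 had more than 1 probe set, and the one of highest mean stood for the gene. The fit was tested on simulated data.

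Named genes are the 15 highest and 10 lowest called genes, a fixed panel of drug and sterol genes, called list members and the 5 at each end of the other comparisons. Cyp2b1 or Cyp2b2 shares 1 probe set and was kept under both names. Ctsd, Tpm1, Cystm1, Sri, Entpd5, Nipal2, Pir, the list members Pgd and Gclc, and the genes called only after quantile normalization were added after their values were seen. The 39 gene lists had 983 of 1121 entries matched. Members and lists were chosen with earlier results of these data known.

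Alternatives were quantile normalization, equal medians, a level filter, a fit of the compared groups alone, a variance trend, array weights, the replicate number as a block, the file-name ending, stricter thresholds and each array left out. Deviations of same-numbered control and myclobutanil arrays correlated at -0.06, 0.0567, 0.141, -0.374 and -0.121 as deposited. After quantile normalization they correlated at 0.0462, -0.126, 0.104, -0.0781 and 0.00115. These values have no reference spread beside them, so they cannot decide whether arrays were paired by number. Whether arrays shared an animal or a batch was not tested. Promoter sequences are from RefSeq, build GRCr8.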

Additional observations from a re-analysis of the deposited data

Results flagged for a closer look

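In 10 of 154 groups of 5 arrays that were checked, 1 array stood apart from the other 4 by Dixon's criterion, which chance alone meets in about 1 of 20 groups. The genes were Aldh1a1 (myclobutanil array 2 at 3.43), Wfdc21 (array 4 at 2.37), Cystm1 (array 4 at 1.16), Gclc (array 4 at 2.05), Cyp1a1 (array 4 at 0.438), Gstm3 (array 5 at 0.547) and Cd14 (array 5 at 1.64). Among the controls they were Por (array 2 at 1.43), Nipal2 (array 5 at 0.18) and Cfd (array 1 at 0.759). Array 4 was the high one in 4 of the 7 myclobutanil groups.

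For 16 of 77 named genes the effect of myclobutanil differed between 14 days and 24 h by limma's test. The 77 leave out genes named only for the ends of the other comparisons. Of these, Cdk1, Stmn1, Spc24, Pclaf, Cdkn3, Csad, Ptgr1 and Fmo1, given above, passed too. Among the 16, the effect at 14 days minus that at 24 h was 1.95 for Cyp7a1, 1.53 for Cyp8b1, 0.726 for Kng2l1, 0.586 for Wfdc21, 0.532 for Pgd, 0.517 for App, 0.501 for Nipal2, 0.456 for Epcam, 0.42 for Plin3, 0.407 for Cystm1, 0.367 for Entpd5, 0.285 for Sri and 0.279 for Ctsd. It was -0.471 for Abcb1a, -0.2 for Cxcl14 and -0.108 for Pop1. After quantile normalization the differences for Wfdc21, Pgd, Plin3, Entpd5, Sri and Ctsd no longer passed the test.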

How the results depend on the processing

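Myclobutanil against control at 14 days gave 246 calls. It gave 110 with only the compared groups in the fit, 76 at an adjusted p under 0.01, 22 with a difference of at least 0.5 units, 32 without myclobutanil arrays 2 and 4, 94 when quantile normalization was added to that, and 73 to 408 with 1 array left out. The effect at 14 days against 24 h gave 1417 calls, and 843, 396, 98, 483, 839 and 677 to 2426 under these settings. Triadimefon against myclobutanil gave 103 calls, and 11, 27, 12, 26, 92 and 23 to 118, besides 292 after quantile normalization. Leaving out arrays 2 and 4 was chosen after seeing the data and uses fewer arrays; other causes were not tested. With the replicate number as a block the counts were 244, 1491 and 78. As deposited, the number's best partner was its own only for number 3 of 5, so the block may not stand for a pairing.

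Of the 46 called named genes, 24 kept their call with any 1 array left out. Quantile normalization kept 41, the block 35, the fit of the compared groups alone 20, and leaving out arrays 2 and 4 kept 18. Those 18 include Cyp2b1 or Cyp2b2, Ugt2b1, Aldh1a1, Gsta3, Ces2c and Abcc3, and not Ephx1, Akr7a3, the CYP3A genes or Spin2b. The fit of the compared groups alone lost Akr7a3, Cyp3a18, Me1, Wfdc21 and Spin2b among the highest and lowest genes. No called difference of a named gene changed sign under these settings. Having 5 arrays a side limits the precision, the score has no background measure, and myclobutanil array 3 alone carries another file-name ending.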

Other observations

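Marker lists of other liver cells held 0 called members at 14 days, as deposited and after quantile normalization: 14 measured genes of liver endothelial cells, 16 of stellate cells and fibroblasts, 7 of erythroid cells, 15 of lymphocytes and 9 of neutrophils and mast cells. Their median differences were 0.0278, 0.0492, 0.0164, -0.00444 and 0.00558 units as deposited, against 0.0171 over all genes, and that of the endothelial list was -0.012 after quantile normalization. The called share of all genes was 1.2% as deposited and 1.58% after quantile normalization, so 0 calls in lists of 7 to 16 genes do not set them apart.

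Genes of hormone handling gave few calls, beside 1.13% higher and 0.0703% lower over all genes as deposited. Steroid hormone metabolism had 0 of 28 measured members called, with a median difference of 0.0541 units as deposited and -0.0168 after quantile normalization. Sex-biased and growth hormone dependent liver genes had 1 of 28 called, retinoid metabolism 1 of 24 and thyroid hormone metabolism 1 of 14, each higher under both scalings. The 44 measured subunits of the respiratory chain had a median difference of 0.115 units as deposited and -0.00589 after quantile normalization, where 1 was lower, against 0 as deposited.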
